A study of Mus musculus with 22 samples.

Results

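Genes for the mitochondrial respiratory chain and ATP synthase were followed through activation of mouse CD8+ T cells. Members were taken by gene symbol, as names starting Ndufa, Ndufb, Ndufc, Ndufs, Ndufv, Sdha to Sdhd, Uqcr, Cox4 to Cox8, Atp5 or mt-, without assembly factors and pseudogenes, and with a mean raw count of at least 10 over the libraries. Among 46603 genes with counts, 98 carried such a name, and 90 passed the count minimum. These 90 were 80 nuclear genes (37 of complex I, 4 of complex II, 8 of complex III, 14 of complex IV and 17 of complex V) and 10 genes of the mitochondrial genome. Complexes were assigned by name. Ndufa4 is therefore counted under complex I throughout, although its protein is described as a subunit of complex IV. The 8 names under the minimum were Cox7b2 and Cox8c, with no count in any library, and Cox8b, mt-Atp8, Cox4i2, mt-Nd3, mt-Nd4l and Ndufa4l2, with mean counts of 2.5 to 5.59. The members just above it were mt-Co3 with a mean count of 19.5 and mt-Co2 with 34.2. All 90 were among the 21183 genes tested.

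The respiratory chain passes electrons from NADH (complex I) and succinate (complex II) over ubiquinone, complex III and cytochrome c to oxygen at complex IV, and complexes I, III and IV pump protons as they do so. ATP synthase (complex V) uses the proton gradient to make ATP. Complexes I, III, IV and V are built from subunits of both genomes: the mitochondrial genome encodes a few hydrophobic core subunits, transcribed as long precursors from both strands, and nuclear genes encode all others. Naive T cells rest metabolically, and activated T cells grow and divide on raised glycolysis and raised mitochondrial respiration.

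The study sequenced poly(A) RNA in bulk from 22 libraries of 8 mice, in 3 experiments numbered 1, 3 and 5 by the labels. Spleens and lymph nodes gave the CD8+ T cells, which were left after other cells had been depleted on magnetic beads. They were sequenced naive or activated, the latter for 24 h or for 48 h with coated anti-CD3 and soluble anti-CD28. KI mice (n = 3, libraries naive, 24 h and 48 h) are labelled hocre of the line Tcaim KI Cd4Cre, and wt mice (n = 3, the same times) are labelled wtcre of that line. KO mice (n = 2, experiments 1 and 5, naive and 48 h) are labelled hocre of the line Tcaim KO Cd4Cre. All groups thus carry Cre by their labels, under the Cd4 promoter, which is active in T cells, and wt mice of the KO line and KO libraries at 24 h were not analysed here. KI and wt mice were male in experiments 1 and 3 and female in experiment 5, and both KO mice were female. Ages were not given in the sources used here. Each mouse gave 1 library at each time, so the p-values below measure the spread between mice handled in these experiments.

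Total counts ran from 62551905 to 93489115 per library, and values per library are given as CPM (counts scaled to a common library size with TMM factors) in the order of experiments 1, 3 and 5. Tcaim, the engineered gene, had 138 to 260 CPM in KI libraries against 8.38 to 15.2 in wt libraries. In the libraries labelled KO it had 14.9 to 19.6 CPM naive and 5.99 to 11.7 CPM at 48 h, and edgeR's quasi-likelihood test did not call it lower than in wt (log2 fold change 0.21 naive, adjusted p 1, and -0.19 at 48 h, adjusted p 0.84). These libraries are therefore called the libraries labelled KO. The 6 genes used as CD8 T cell markers (Cd8a, Cd8b1, Cd3d, Cd3e, Cd3g and Lck) summed to 2460 to 5315 CPM in all libraries. Their sum was also lower at 48 h than in naive cells. It was 4201 to 5062 naive and 2524 to 3224 at 48 h in wt, and 4943 to 5181 and 3023 to 3254 in KI. In the libraries labelled KO it was 3532 to 5315 and 2460 to 2815. Several marker sets of other cells were highest in naive libraries: the 4 B cell markers summed to 114 to 979 CPM in naive and 30.4 to 218 CPM in activated libraries, and the 6 myeloid and dendritic cell markers to 220 to 1425 and 37.2 to 265 CPM. The highest naive sums of both came from the libraries labelled KO, while naive wt libraries reached 362 and 683 CPM and naive KI libraries 289 and 503. The 3 CD4 T cell markers summed to 46.3 to 77.1 CPM in naive wt and 27.9 to 48.1 in wt at 48 h. In KI the range was 41 to 54.9 naive and 37.9 to 70.1 at 48 h. It was widest in the libraries labelled KO, with 37.2 to 236 naive and 31.6 to 175 at 48 h. None of these markers was at 0 throughout, and their part in the differences between naive and activated cells was not tested. Of the 3 activation markers, Il2ra had means of 5.07, 137 and 440 CPM in wt libraries naive, at 24 h and at 48 h, Cd44 had 25.3, 43.7 and 97.4, and Cd69 went down, with 325, 111 and 88.1.

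A pair of 48 h libraries stood apart in the mitochondrial members. The ratio of mt-Co1 to mt-Cytb counts was 12.9 in the library labelled KO of experiment 1 and 4.96 in the wt library of experiment 3, against 1.92 to 2.62 in the other 20. Results that rest on them are given with and without both, a choice made after seeing the data.

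Counts for part of the mitochondrial genome were nearly absent, with 1 exception. Between positions 6870 and 10173 of the mitochondrial chromosome lie 11 genes, of which mt-Atp6 had the highest mean count (87.95). That mean rests on 1501 counts in the 48 h library of experiment 5 labelled KO, against 5 to 45 in each other library. By comparison mt-Co1 upstream had 738646 and mt-Nd4 downstream 103782. A nuclear copy of this stretch lies at chr1:24611535-24616197 (GRCm38), with 7 pseudogenes. Transcripts of each gene were read in 75-base windows, and windows also found in transcripts of other annotated genes are called windows elsewhere. Sequence outside annotated transcripts was not searched. Windows elsewhere made up 99.5% of the windows of mt-Co2 and mt-Atp6 and 99.9% of those of mt-Co3. The share was 61.5% for mt-Nd4, 39.8% for mt-Co1, 5.7% for mt-Nd2, 1.66% for mt-Nd5 and 0 for mt-Nd1, mt-Nd6 and mt-Cytb. How reads with several matches were counted is not given in the sources used here, so values of mt-Co2, mt-Co3 and mt-Atp6, and in part of mt-Co1 and mt-Nd4, cannot be read as transcript levels. The 7 other mitochondrial members had mean counts of 69721 (mt-Nd6) to 738646 (mt-Co1). Among nuclear members 24 of 80 had 5% or more of their windows elsewhere, led by Atp5g2 (35.8%), Atp5o (34.2%) and Ndufb6 (27.8%), and their counts are uncertain in the same way.

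Promoter sequence was taken from RefSeq on build GRCm38.p6, as the 250 bases before each gene start, because the nuclear members moved together on activation. Of 80 nuclear members 67 had an entry, with 72 starts. Each was searched on both strands for core motifs of factors named as regulators of respiratory genes: GCGCATGCG (NRF1), CCGGAAG (the ETS family, which holds NRF2/GABP), AAGATGGCG (YY1) and the E-box CACGTG (bound by Myc among others). The NRF1 core was in 6 of the members' 72 windows (8.33%) and in 1.45% of all 32851 windows. The ETS core was in 12 (16.7% against 6.91%), the YY1 core in 1 (1.39% against 0.606%) and the E-box in 7 (9.72% against 6.02%). At least 1 of the 4 was in 22 of 72 windows (30.6%), against 13.9% of all. The windows of all starts come from 27025 genes that were not chosen by expression in these cells. Of the 72 member starts 60 had their first 30 bases in a transcript of the counted gene. The start of Sdhd printed below did not. The motifs are letters in a window, not bound sites. Shown are the 3 promoters with a match whose genes had the largest change in wt cells at 48 h among those called, each 5′ to 3′ on the gene's strand, with the matching letters in capitals: in Ndufb6 and Sdhd the ETS core, on the opposite strand, and in Atp5g3 the E-box.
Ndufb6, chr4:40279422-40279671, minus strand: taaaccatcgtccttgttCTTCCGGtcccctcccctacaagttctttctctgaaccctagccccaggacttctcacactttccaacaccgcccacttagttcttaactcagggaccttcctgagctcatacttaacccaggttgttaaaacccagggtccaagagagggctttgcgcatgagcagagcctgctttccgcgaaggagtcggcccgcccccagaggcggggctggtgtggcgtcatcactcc
Atp5g3, chr2:73911327-73911576, minus strand: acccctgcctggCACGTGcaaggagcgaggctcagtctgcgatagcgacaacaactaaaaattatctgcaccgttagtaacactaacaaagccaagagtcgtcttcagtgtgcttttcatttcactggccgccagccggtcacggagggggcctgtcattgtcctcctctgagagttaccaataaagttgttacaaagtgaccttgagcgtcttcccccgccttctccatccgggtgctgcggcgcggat
Sdhd, chr9:50603850-50604099, minus strand: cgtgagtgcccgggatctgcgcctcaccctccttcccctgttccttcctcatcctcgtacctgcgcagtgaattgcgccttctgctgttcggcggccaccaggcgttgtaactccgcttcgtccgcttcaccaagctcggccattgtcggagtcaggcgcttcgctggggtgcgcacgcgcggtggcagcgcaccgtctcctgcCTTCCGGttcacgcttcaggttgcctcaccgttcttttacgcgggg
The match lies 232 to 226 bases before the start in Ndufb6, 238 to 233 in Atp5g3 and 46 to 40 in Sdhd, whose RefSeq start lies 37 bases from the start annotated for the counted gene.

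Activation raised most nuclear members within 24 h, in all complexes, and lowered 1. In wt cells 61 of 90 members were called higher and 2 lower at 24 h against naive, by edgeR's quasi-likelihood test with Benjamini-Hochberg adjustment at an adjusted p under 0.05 over all genes. Of all genes tested 26.3% were called higher and 22% lower in that comparison. The 80 nuclear members gave 61 of the higher calls and 1 of the lower calls, with a median log2 fold change of 0.80, against -0.05 over all genes. At 48 h 66 members were called higher and 5 lower, with 29.6% and 26.8% of all genes called. The nuclear members gave 66 and 1 of these, with a median of 0.83, against -0.04 over all genes. Of the 61 and 66 called higher, 60 were called at both times. Among the 56 nuclear members with under 5% of windows elsewhere, 48 were called higher at 48 h and 0 lower, with a median of 0.85. Without the 2 libraries that stood apart, 63 of 90 members were called higher and 6 lower at 48 h. As summed counts, the nuclear members held 0.556% to 0.66% of a library's counts in naive cells of any genotype and 0.856% to 1.08% in activated cells. In bulk RNA, fewer cells of a type and less RNA per cell cannot be told apart, and CPM give shares of a library, not amounts per cell.

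**Figure D1:**
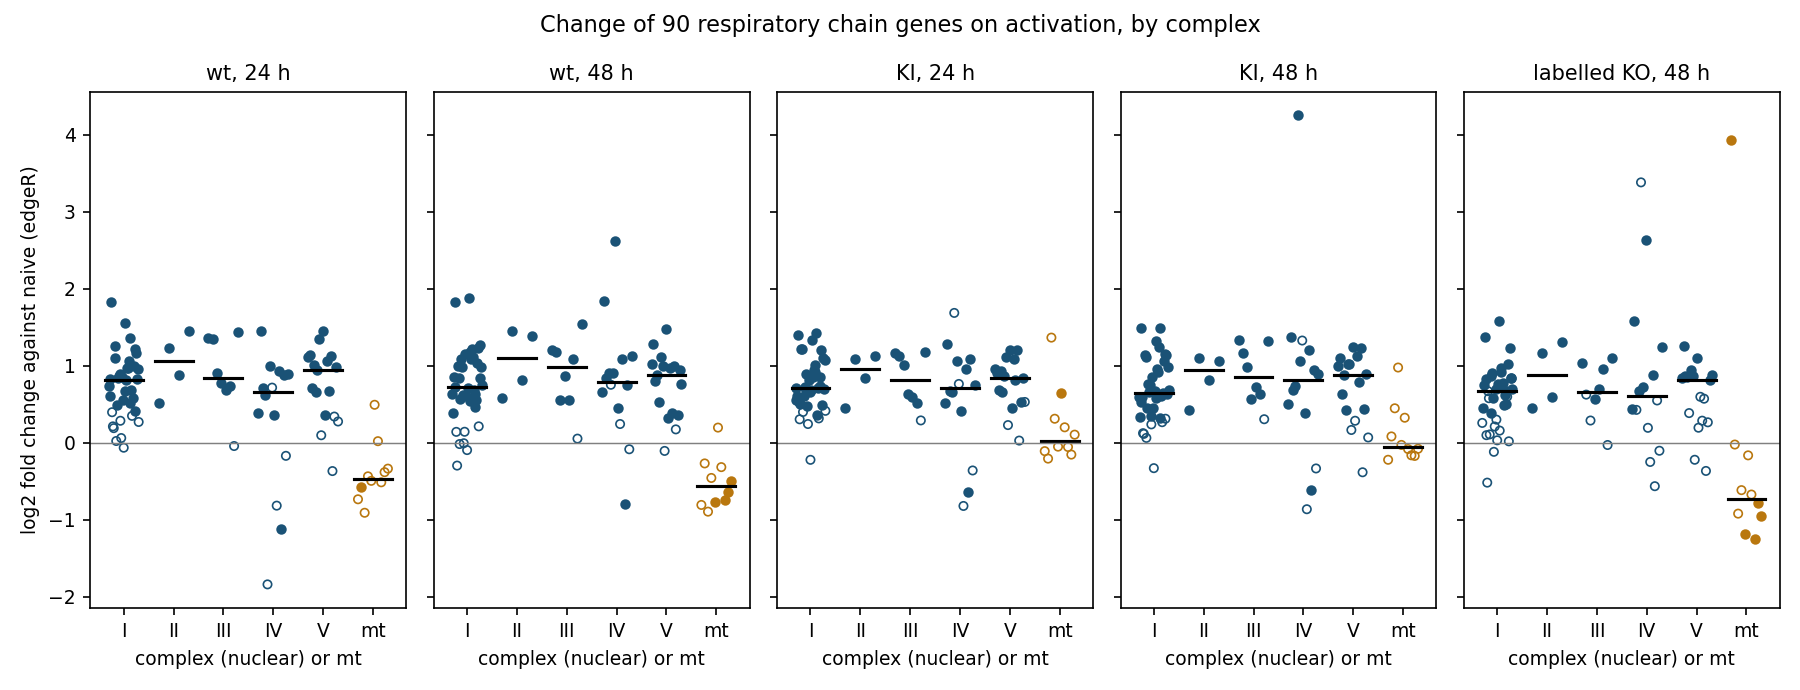
Log2 fold change on activation for the 90 members, by complex (nuclear members of complexes I to V, then the 10 mitochondrially encoded members), in 5 panels: wt at 24 h and 48 h, KI at 24 h and 48 h and the libraries labelled KO at 48 h, each against naive. Each point is 1 gene, filled where edgeR called it, and lines mark medians; nuclear medians lie between 0.61 and 1.1 in every complex and panel, and the mitochondrial medians between -0.73 and 0.03.

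Complex I, the NADH dehydrogenase, had 28 of 37 nuclear members called higher in wt cells at 24 h and 30 at 48 h, and none lower, with median log2 fold changes of 0.81 and 0.72. Its 7 core subunits, which hold the flavin and iron-sulfur clusters between them, had 6 called higher at 48 h (median 0.68), and its 30 accessory subunits 24 (median 0.74). The 37 and the 30 include Ndufa4 by its name, which was among those called higher at 48 h. The largest changes were in the accessory subunits Ndufb6 (chr4:40270591-40279421) and Ndufa12 (chr10:94198720-94221443). Ndufb6 had 15.6, 14.2 and 18.2 CPM in naive wt libraries, 45.3, 49.3 and 47.0 at 24 h and 56.1, 47.2 and 73.8 at 48 h. Its log2 fold change was 1.56 at 24 h (SE 0.189 and adjusted p 2.29e-06) and 1.88 at 48 h (SE 0.191 and adjusted p 1.7e-07), by edgeR. Every activated library lay above every naive one. Ndufa12 had 7.37, 7.25 and 8.63 CPM naive, 27.5, 30.9 and 24.1 at 24 h and 28.2, 23.2 and 31.3 at 48 h, without overlap (log2 fold change 1.83 at both times). Ndufs8, a core subunit with iron-sulfur clusters, rose by 1.27 at 48 h. The members not called at 48 h were Ndufa3, Ndufb4, Ndufa6, Ndufb10, Ndufb11, Ndufa2 and the core subunit Ndufs7, with log2 fold changes of -0.30 to 0.21. Ndufa6, for example, had 63.3, 52.9 and 84.0 CPM naive against 58.6, 69.4 and 69.7 at 48 h, and the ranges overlapped.

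All 4 subunits of complex II, the succinate dehydrogenase and the one complex with no mitochondrially encoded subunit, were called higher in wt, KI and the libraries labelled KO at each activated time. In the libraries labelled KO each of the 4 calls was lost under at least 1 alternative. Sdha (chr13:74322254-74350280), the flavoprotein, had 250, 241 and 250 CPM in naive wt libraries and 380, 367 and 363 CPM at 48 h. Its log2 fold change was 0.58 (SE 0.0945; edgeR adjusted p 4.34e-05), the smallest of the 4. Sdhb (chr4:140961203-140979193), the iron-sulfur subunit, went from 65.8, 58.0 and 73.5 CPM to 182, 157 and 201 CPM, a change of 1.45 on the log2 scale (SE 0.134; edgeR adjusted p 5.48e-08). The membrane anchors Sdhc and Sdhd rose by 0.81 and 1.38. Per length, the mean level of Sdhb went from 34.9 to 90 FPKM and that of Sdha from 75.6 to 107 (a level scaled for gene length and depth, as deposited by the authors).

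Complex III, the cytochrome bc1 complex, had 7 of 8 nuclear members called higher at both times in wt cells, with medians of 0.84 and 0.98. The small subunit Uqcrq (chr11:53427922-53430831) had 22.3, 21.8 and 30.8 CPM naive, 67.5, 76.1 and 60.2 at 24 h and 78.0, 59.0 and 81.3 at 48 h, with log2 fold changes of 1.44 and 1.54. Uqcr10 rose by 1.36 at 24 h and 1.2 at 48 h and Uqcr11 by 1.34 and 1.18. Uqcrfs1, the Rieske iron-sulfur protein that takes electrons from ubiquinol, rose by 0.73 and 1.09. Uqcrh, the hinge protein, was the exception: it had 204, 174 and 272 CPM naive against 200, 210 and 265 at 48 h, and was not called in any activation comparison.

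Complex IV, cytochrome c oxidase, had 9 of 14 nuclear members called higher and 1 lower at 24 h in wt cells, and 10 and 1 at 48 h, with medians of 0.66 and 0.80. Ndufa4, counted under complex I by its name, is not among the 14. Cox5a (chr9:57521274-57532426), a matrix-side subunit, had 61.1, 52.7 and 67.4 CPM naive, 168, 174 and 152 at 24 h and 204, 165 and 281 at 48 h. Its log2 fold change was 1.45 at 24 h and 1.84 at 48 h (SE 0.171; edgeR adjusted p 5.84e-08), and no activated library overlapped the naive ones. The regulatory subunit Cox4i1 rose less, by 0.39 and 0.66. Its rise at 24 h was lost under several alternatives, the lowest value being 0.21 with upper-quartile scaling (edgeR adjusted p 0.201).

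Cox7a2l (chr17:83501919-83514333), known as the supercomplex factor SCAF1 that joins complexes III and IV, was the nuclear member called lower. It had 290, 250 and 325 CPM in naive wt libraries, 130, 121 and 148 at 24 h and 154, 185 and 160 at 48 h. All activated wt libraries lay below all naive ones. Its log2 fold change was -1.12 at 24 h (SE 0.192; edgeR adjusted p 0.000108) and -0.79 at 48 h (SE 0.191 and adjusted p 0.00174). In KI cells it was -0.64 and -0.61, both called, though leaving out KI replicate 1 or 3 gave adjusted p-values from edgeR of 0.0591 to 0.127. In the libraries labelled KO it was -0.57 at 48 h, not called (adjusted p 0.0562), with 243 and 129 CPM against 239 and 313 naive. Per length it was the most abundant nuclear member in naive wt cells, at 299 ± 36.3 FPKM (SD, n = 3). Of its windows 10.4% also occur in transcripts of other annotated genes.

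Isoform pairs of complex IV kept the same order of level throughout the means of the wt groups. Cox6a1 stood at 131 FPKM in naive wt cells and 231 at 48 h, and its heart and skeletal muscle isoform Cox6a2 at 0.511 and 0.807. Cox6b1 stood at 194 and 341 FPKM, and the testis isoform Cox6b2 at 0.653 and 3.78. Cox7a2 stood at 89.9 and 180 FPKM, and the muscle isoform Cox7a1 at 2.4 and 2.67. The tissue-restricted isoforms were thus a small part of each pair in CD8+ T cells. Cox6b2 was nevertheless called higher by edgeR in wt at 48 h (by 2.62, adjusted p 0.00992), with 2.22, 7.99 and 1.07 CPM against 0.58, 0.519 and 0.728. That call rested on the library of experiment 3 that stood apart, and without wt replicate 3 it was 1.33 (adjusted p 0.238 by edgeR). Cox6a2 was called higher in KI at 48 h, by 4.25 (SE 1.31; edgeR adjusted p 0.012), with 2.64, 1.48 and 6.6 CPM against 0.148, 0.202 and 0.206 naive, and was not called without KI replicate 1 (adjusted p 0.0598 by edgeR) or 5 (0.116). The 48 h library of experiment 1 labelled KO had 8.55 CPM of Cox6a2, and that of experiment 5 had 0.0567.

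ATP synthase had 13 of 17 nuclear members called higher at 24 h and 15 at 48 h in wt cells, none lower, with medians of 0.94 and 0.88. Atp5b (chr10:128083273-128090391), the catalytic beta subunit, had 708, 629 and 697 CPM naive against 1782, 1596 and 1591 at 48 h, a change of 1.29 on the log2 scale (SE 0.112; edgeR adjusted p 2.54e-08). The 3 genes for the c subunit of the membrane rotor, which encode the same mature protein, behaved differently. Atp5g3 (chr2:73908447-73911326) had 107, 100 and 108 CPM naive, 284, 322 and 256 at 24 h and 293, 235 and 348 at 48 h, and rose by 1.45 and 1.48. Atp5g1 rose by 1.34 and 1.00. Atp5g2 had 2.29, 1.97 and 2.34 CPM naive against 1.85, 2.48 and 1.81 at 48 h, and was not called in any activation comparison. At 48 h their mean levels were 150, 6.94 and 1.36 FPKM for Atp5g3, Atp5g1 and Atp5g2. Most of the windows that make counts uncertain among them belong to Atp5g2 (35.8%), with 7.29% in Atp5g1 and 0 in Atp5g3. Atp5l was the other ATP synthase member not called at 48 h (log2 fold change 0.17).

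**Figure D2:**
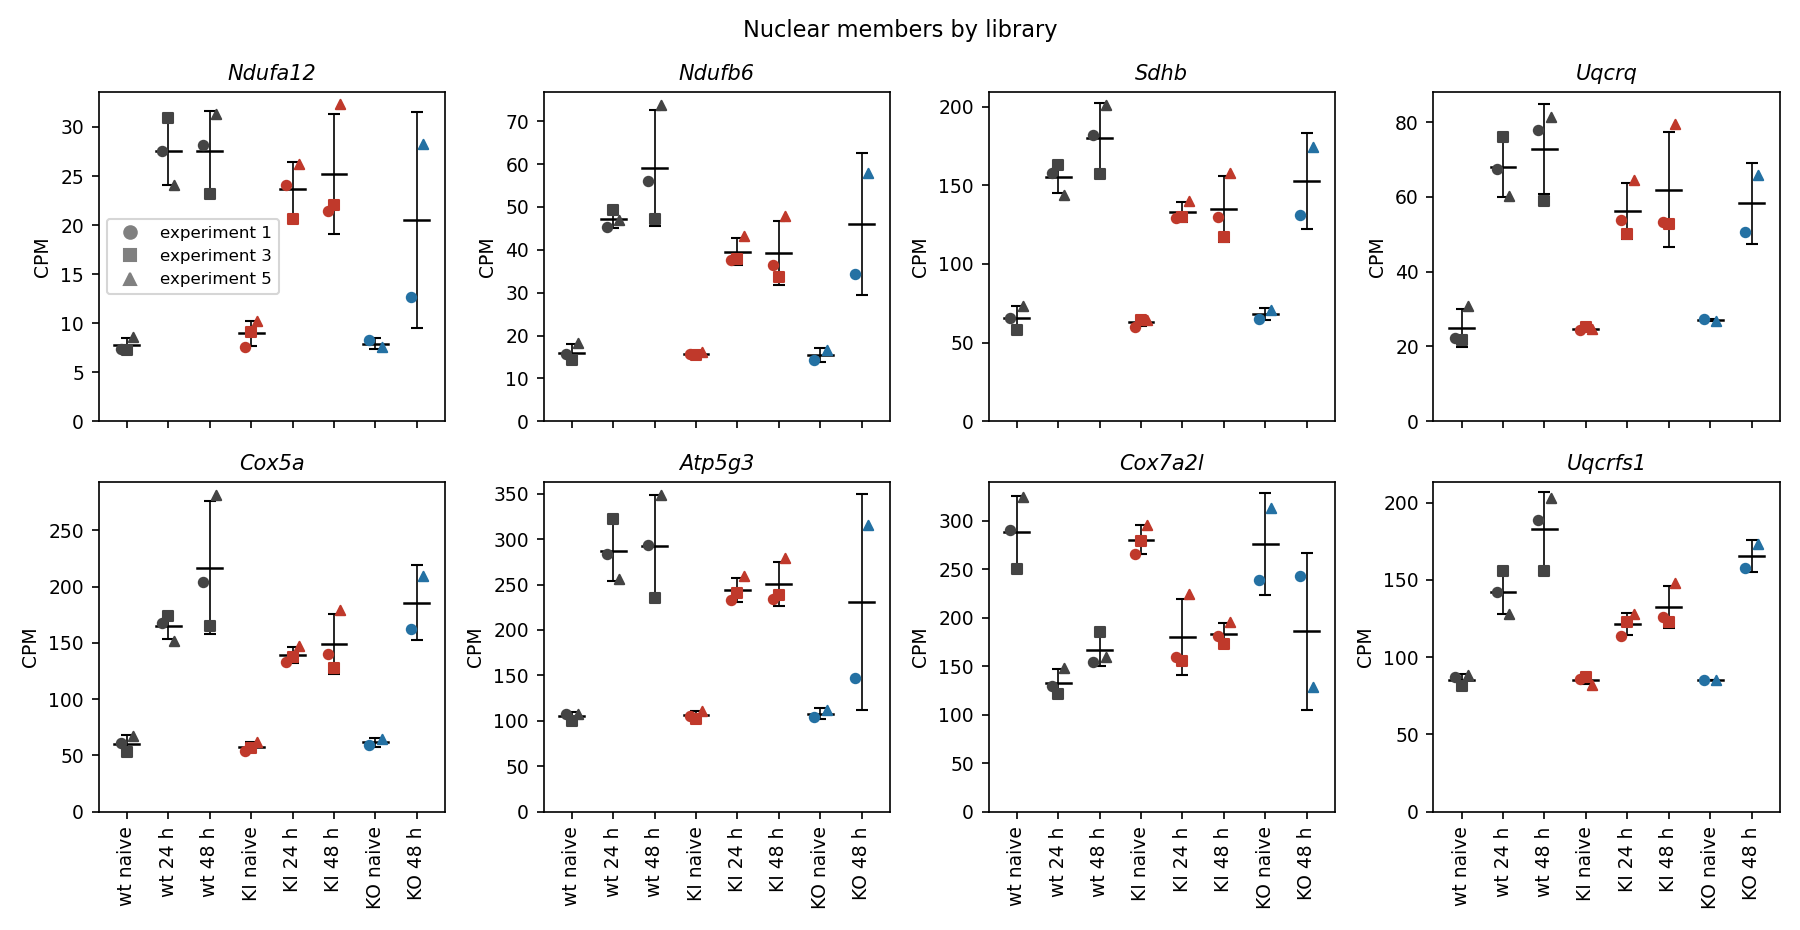
CPM of 8 nuclear members in each of the 22 libraries, by group (wt, KI and libraries labelled KO; naive, 24 h and 48 h), with marker shape by experiment and the group mean and SD as lines. Ndufb6 in wt goes from 14.2 to 18.2 naive to 47.2 to 73.8 at 48 h, while Cox7a2l goes from 250 to 325 down to 154 to 185.

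KI cells and the libraries labelled KO also raised the nuclear members on activation. In KI cells 66 of 90 members were called higher and 1 lower at 24 h (all genes 22.9% and 15.8%), and 64 and 1 at 48 h (all genes 26.6% and 22.1%). The nuclear median was 0.73 at both times. In the libraries labelled KO 50 were called higher and 4 lower at 48 h (all genes 23.7% and 20.4%), with a nuclear median of 0.67. With each mouse as a block 10 members were called, and 3 when the fit held only these 2 groups. Without the 2 libraries that stood apart, which leaves 1 library labelled KO at 48 h that is assumed to vary like the others, 49 were called higher and 4 lower. Across these 5 comparisons, which share the naive libraries of each genotype, 44 members were called higher every time. The 9 nuclear members never called were Ndufa2, Ndufa6, Ndufb4, Ndufb11, Uqcrh, Cox7a1, Cox7c, Atp5g2 and Atp5l. Experiment by experiment, the mean log2 level of the nuclear members rose in wt by 0.76, 0.93 and 0.39 at 24 h and by 0.77, 0.89 and 0.66 at 48 h. In KI it rose by 0.68, 0.66 and 0.83 and by 0.70, 0.59 and 0.87.

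Few members passed the test between 24 h and 48 h. In wt cells 0 of 90 members were called by edgeR at 48 h against 24 h (10 at an unadjusted p under 0.05, 2 called by DESeq2), with 7.45% of all genes called. Ndufv3 had a log2 fold change of 0.48 (adjusted p 0.0778 by edgeR) and Uqcrfs1 of 0.36 (adjusted p 0.0526). Without the 2 libraries that stood apart 6 members were called: Uqcrfs1, Ndufs1, Ndufb6, Ndufb2 and Cox5a higher and Ndufa3 lower, while 1661 and 1874 of all 21183 genes were called higher and lower. In KI cells 0 were called by edgeR (2 at an unadjusted p under 0.05, 0 by DESeq2, 4 with each mouse as a block), with 2.68% of all genes called.

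Mitochondrially encoded members did not rise together as the nuclear ones did. In wt cells none of the 10 was called higher at either time, with medians of -0.47 and -0.57, and 1 was called lower at 24 h and 4 at 48 h, against 22% and 26.8% of all genes. Over the 7 with many counts the medians were -0.38 and -0.50. Their mean log2 CPM in wt, by experiment, was 11.39, 11.17 and 11.84 naive and 11.35, 11.25 and 11.11 at 24 h. At 48 h it was 11.26, 10.98 and 10.89. The KI group means were 11.25 naive, 11.32 at 24 h and 11.24 at 48 h. The 24 h call was mt-Co1, the catalytic core of complex IV, which had 10266, 9157 and 15060 CPM naive against 7967, 7459 and 7721 at 24 h (log2 fold change -0.58, adjusted p 0.0456 by edgeR). With each experiment as a block it was -0.57 (adjusted p 0.0572 by edgeR), and with each mouse as a block -0.56 (adjusted p 0.0785 by edgeR). Without wt replicate 5 it was -0.33 (adjusted p 0.271 by edgeR), and the call was also lost without wt replicate 1 or 3 and with no filter on low counts. At 48 h mt-Co1 had 9423, 12242 and 6940 CPM, overlapping the naive range.

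The calls at 48 h were mt-Cytb, mt-Nd4, mt-Nd5 and mt-Nd6. mt-Cytb, the cytochrome b of complex III, had 4612, 3859 and 6827 CPM naive, 3827, 3714 and 3307 at 24 h and 3602, 2467 and 2885 at 48 h. Its log2 fold change at 48 h was -0.77 (SE 0.286; edgeR adjusted p 0.028). mt-Nd5, a proton-pumping subunit of complex I, had 2992, 2603 and 3574 CPM naive and 2359, 2136 and 1393 at 48 h (log2 fold change -0.64, adjusted p 0.0193 by edgeR). mt-Nd4 changed by -0.74 and mt-Nd6, the one protein gene on the opposite strand of the mitochondrial genome, by -0.50. The strand setting of the counting is not given in the sources used here. Counts of mt-Nd6 may therefore hold reads from the other strand, which was not tested. The libraries were of poly(A) RNA. Counts of mt-Nd6 and the other mitochondrial members, here and below, thus also depend on poly(A) capture, which was not tested. The naive wt library of experiment 5 was the highest wt naive library for all 7 members with many counts. Without wt replicate 5 none of the 4 was called, with log2 fold changes of -0.25 to -0.48 and adjusted p-values from edgeR of 0.267 to 0.369. Without wt replicate 3 mt-Nd5 was still called, and mt-Nd6, mt-Nd4 and mt-Cytb were not (adjusted p 0.0538 to 0.0689 by edgeR). mt-Nd1, also a complex I subunit, went the other way: it had 2372, 1993 and 3344 CPM naive and 3930, 3677 and 3239 at 24 h, a log2 fold change of 0.49 that was not called (adjusted p 0.104 by edgeR). At 48 h it was 0.20.

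In KI cells mt-Nd1 was called higher at 24 h, with 1987, 2026 and 2352 CPM naive and 3449, 3531 and 2980 at 24 h (log2 fold change 0.65, adjusted p 0.0437 by edgeR). The call was lost without any 1 of the 3 KI replicates (adjusted p 0.0654 to 0.235 by edgeR) and with upper-quartile scaling (0.48, adjusted p 0.116). The other 9 members were not called at 24 h, and none of the 10 at 48 h, with medians of 0.03 and -0.05. mt-Cytb in KI stayed at 3918, 3840 and 4861 CPM naive against 4156, 4043 and 4169 CPM at 48 h, ranges that overlap.

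In the libraries labelled KO mt-Nd4 (-1.26), mt-Cytb (-1.18), mt-Nd6 (-0.95) and mt-Nd5 (-0.78) were called lower at 48 h. mt-Cytb had 4244 and 6184 CPM naive and 1111 and 3483 at 48 h, the lowest value being that of the library that stood apart. Without both such libraries mt-Cytb was -0.58 (adjusted p 0.0913 by edgeR) and mt-Nd5 -0.47 (adjusted p 0.214), and neither was called. mt-Nd4 was then -0.68 and mt-Nd6 -0.71 (adjusted p 0.0433 each by edgeR), both still called. mt-Atp6 was called higher (3.94, adjusted p 0.0123 by edgeR), on 17 CPM in the library of experiment 5 and 0.0745 in that of experiment 1, against 0.541 and 0.573 naive. It lies in the stretch with nearly absent counts, and without KO replicate 5 its change was -2.83.

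**Figure D3:**
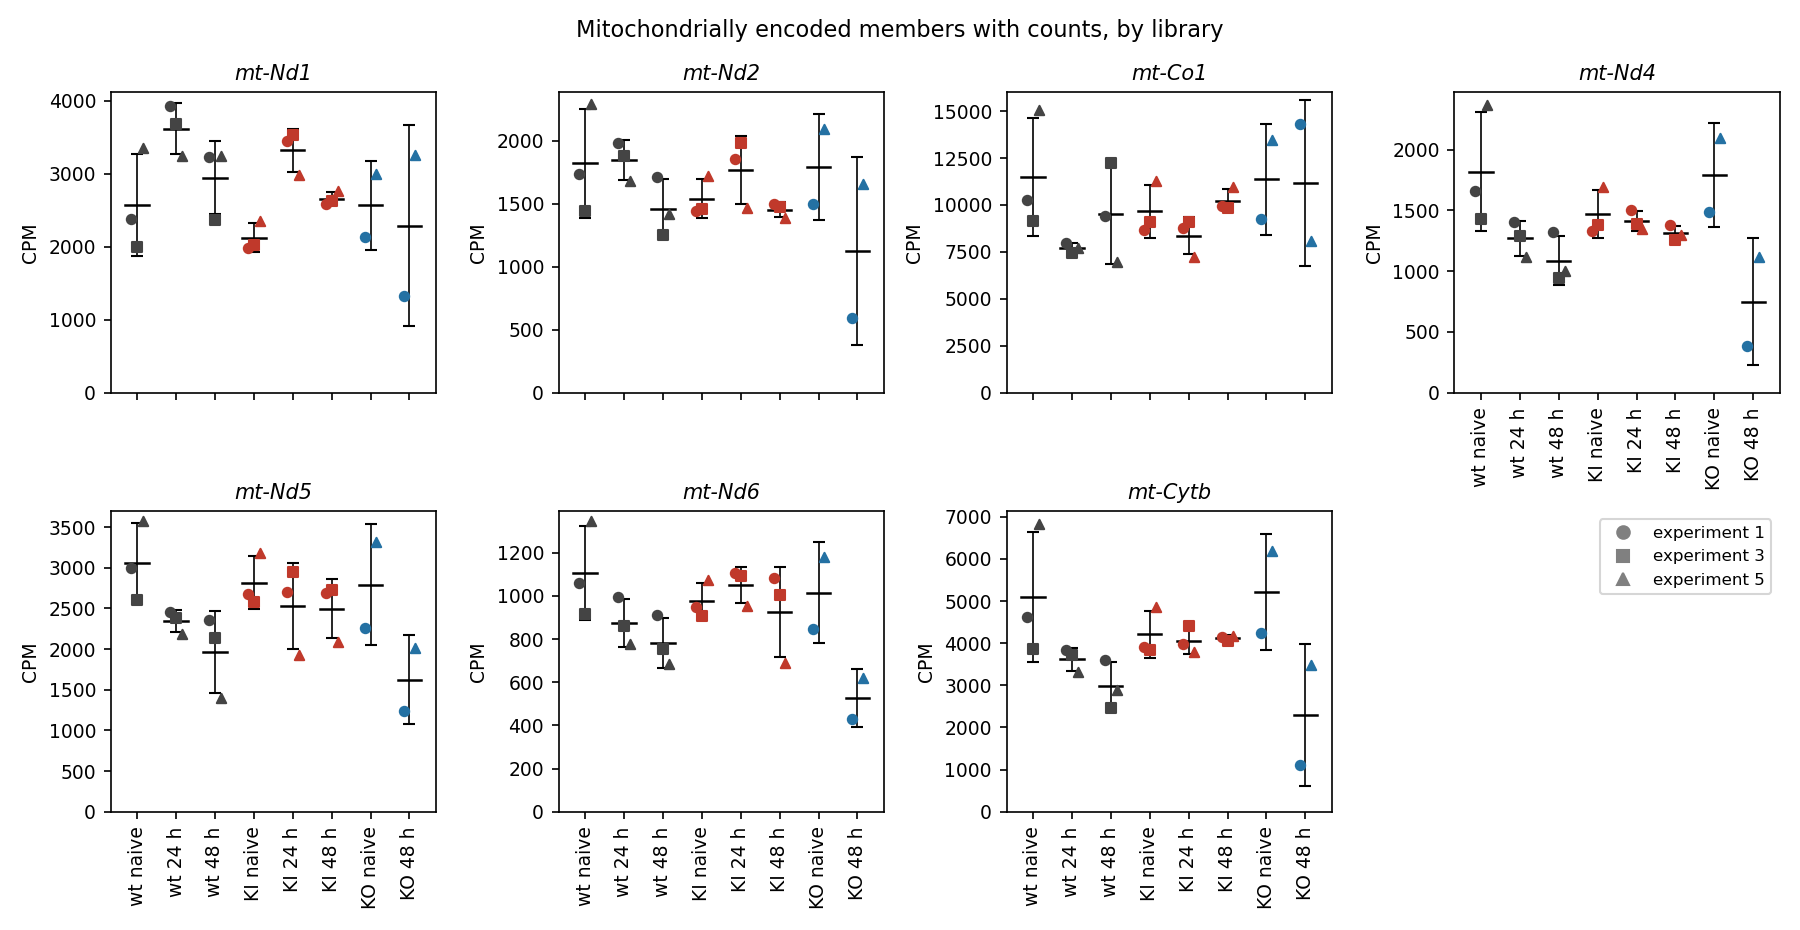
CPM of the 7 mitochondrially encoded members with many counts in each of the 22 libraries, by group, with marker shape by experiment and the group mean and SD as lines. mt-Cytb in wt goes from 3859 to 6827 naive to 2467 to 3602 at 48 h, while mt-Nd1 in wt goes from 1993 to 3344 naive to 3239 to 3930 at 24 h.

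The make-up of the mitochondrial counts also changed on activation. Of the counts of the 7 members, mt-Nd1 held 9.51% ± 0.168 in naive wt libraries and 17% ± 0.686 at 24 h (SD, n = 3), and 14.5% ± 3.91 at 48 h. In KI it held 9.33% ± 0.297, 14.8% ± 0.345 and 11.5% ± 0.363 (SD, n = 3). Neither mt-Nd1 nor mt-Cytb had windows in transcripts of other annotated genes, and copies outside such transcripts were not searched. The ratio of mt-Nd1 to mt-Cytb counts was 0.49 to 0.516 in naive wt, 0.98 to 1.03 at 24 h and 0.894 to 1.12 at 48 h. In KI it was 0.484 to 0.528, 0.788 to 0.867 and 0.623 to 0.661, and in the libraries labelled KO 0.485 and 0.503 naive and 0.935 and 1.19 at 48 h. Naive libraries of all genotypes overlapped, and the KI libraries lay below all wt libraries at 24 h and at 48 h. This ratio was picked after its values were seen and is given as a description with no test. mt-Co1 held 41.3% to 43.3% of these counts in all naive libraries and 35.1% to 38.5% at 24 h. At 48 h it held 73.8% in the library of experiment 1 labelled KO and 55.2% in the wt library of experiment 3, against 39.5% to 46.9% in the other 6.

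The balance between the genomes was taken as the mean log2 CPM of the 10 mitochondrial members minus that of the 80 nuclear members. In wt libraries it was 2.34 ± 0.299 naive (SD, n = 3), 1.31 ± 0.177 at 24 h (SD, n = 3) and at the last time, 48 h, 1.08 ± 0.304 (SD, n = 3). The wt ranges did not overlap between naive (2.02 to 2.61) and 24 h (1.12 to 1.46). In KI it was 2.11 ± 0.209, 1.61 ± 0.262 and 1.52 ± 0.135, so the change from naive was -0.50 at 24 h and -0.59 at 48 h, against -1.03 and -1.26 in wt. In the libraries labelled KO it was 2.28 and 2.45 naive and 0.372 and 1.9 at 48 h. Over the 7 mitochondrial members with many counts, a measure added after seeing the data, the changes were -0.93 and -1.20 in wt and -0.66 and -0.74 in KI. The KI minus wt difference at 48 h was 0.43 with all 10 and 0.30 with 7, and at 24 h 0.30 and 0.11. KI and wt libraries at 48 h did not overlap with all 10 members (1.38 to 1.65 against 0.754 to 1.36) and overlapped with 7 (5.1 to 5.51 against 4.83 to 5.28). In summed counts the mitochondrial members held 1.72% to 3.51% of a library. These are scores over chosen members and carry no test.

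**Figure D4:**
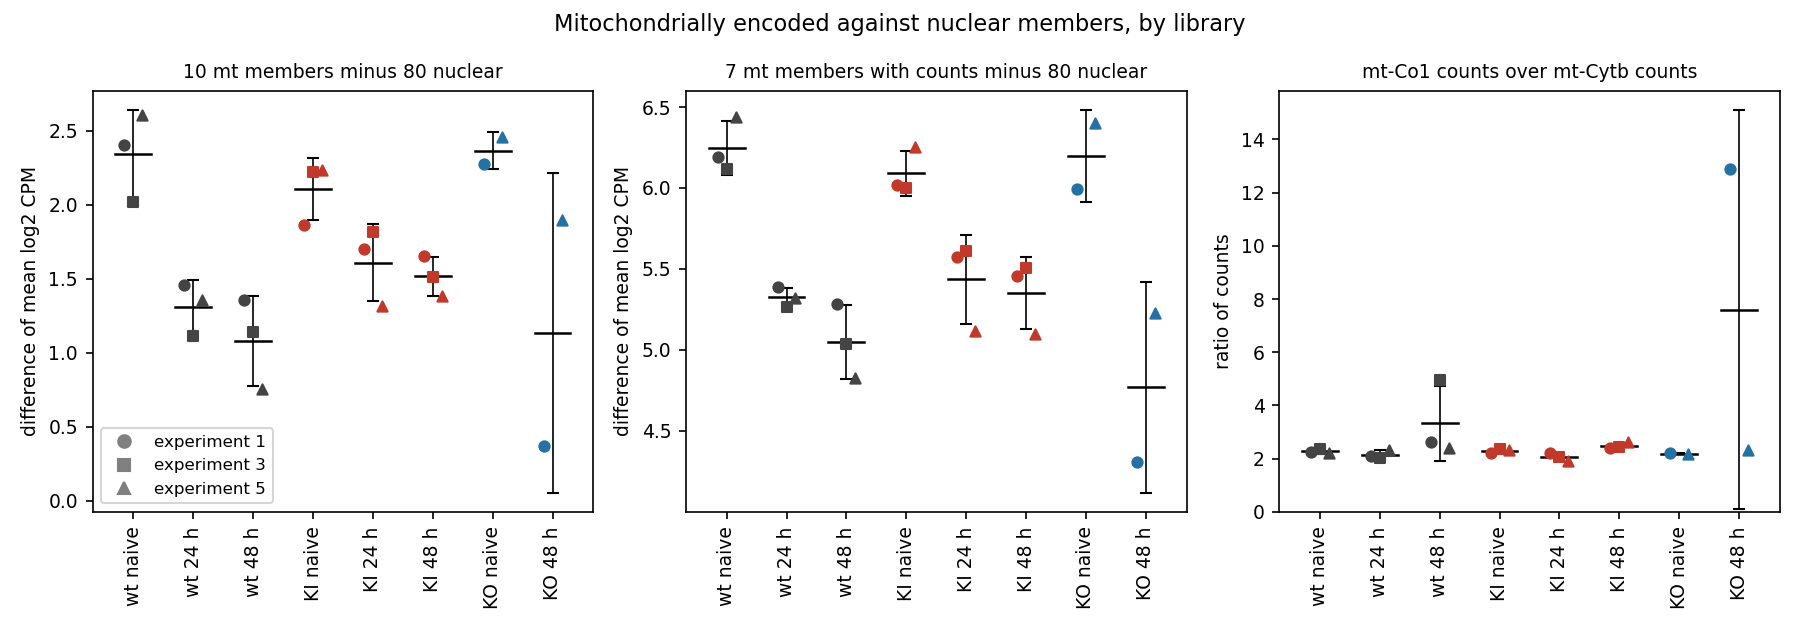
Panels over the 22 libraries by group, with marker shape by experiment and group mean and SD as lines: the log2 balance of 10 mitochondrial against 80 nuclear members, the same over 7 mitochondrial members, and the ratio of mt-Co1 to mt-Cytb counts. The balance falls from 2.02 to 2.61 in naive wt to 0.754 to 1.36 at 48 h, and the ratio stands at 12.9 and 4.96 in a pair of 48 h libraries against 1.92 to 2.62 elsewhere.

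KI and wt cells, which differ in Tcaim level, were compared at each time. In naive cells 0 of 90 members were called by edgeR (0 at an unadjusted p under 0.05, 0 by DESeq2), with 0.0803% of all genes called. The members with the smallest p were Uqcrb (log2 fold change -0.25), Cox7b (-0.30) and mt-Co3 (-0.81), each with an adjusted p of 1 by edgeR. At 24 h 0 were called (4 at an unadjusted p under 0.05, 0 by DESeq2), with 0.00472% of all genes called. The smallest p were those of mt-Co2 (1.72, adjusted p 0.438 by edgeR), Atp5b (-0.26, 0.502) and Cox7a2l (0.44, 0.523).

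At 48 h Uqcrfs1 (chr13:30540308-30545362) was the 1 member called, lower in KI, with 2.29% of all genes called higher and 1.91% lower. It had 126, 123 and 148 CPM in KI against 189, 156 and 203 in wt, without overlap, a change of -0.46 on the log2 scale (SE 0.11; edgeR adjusted p 0.0231). In naive cells KI and wt stood at 85.2 ± 2.58 and 85.5 ± 3.72 CPM (SD, n = 3 each), and at 24 h at 114, 123 and 128 against 142, 156 and 128. The call was lost when only these 2 groups entered the fit (adjusted p 0.198 by edgeR), without a filter on low counts (0.0605) and without KI replicate 1 or 3 or wt replicate 1 or 5 (0.104 to 0.221). Next in order of p were Atp5s (-0.82, adjusted p 0.0504 by edgeR), named for a coupling factor of ATP synthase, and Cox5a (-0.54), Ndufb6 (-0.59) and Sdhb (-0.42). Atp5s had 3.24, 3.27 and 3.18 CPM in KI and 4.21, 6.81 and 6.05 CPM in wt. Of 90 members 66 had a negative fold change, against 10465 of all 21183 genes, and the nuclear median was -0.13. The activation marker Il2ra had a mean of 288 CPM in KI and 440 CPM in wt at 48 h. Myeloid and dendritic markers summed to 90.2 to 228 CPM in KI and 41.0 to 144 in wt, and B cell markers to 85.3 to 188 and 39.6 to 119. The part of these differences in the members' values was not tested.

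More members passed the test at 48 h under other fits, as did more genes in all. There were 6 by DESeq2 (of all genes 1701 of 19711), 4 with each experiment as a block (1003 of 21183) and 4 without wt replicate 3 (1264 of 21183), lower in KI in all cases. In none of these fits was the share of members called above that of all genes. Without the 2 libraries that stood apart 15 were called, 12 lower and 3 higher, while 2075 and 1849 of all 21183 genes were called higher and lower. As shares, 13.3% of members were lower and 3.33% higher, against 8.73% and 9.8% of all genes. The libraries left out had been set apart by counts of members, mt-Co1 and mt-Cytb. The 12 were Uqcrfs1, Ndufs1 (-0.45), Ndufs3 (-0.43), Ndufa8 (-0.39), Ndufa9 (-0.35), Ndufb2 (-0.60), Ndufb6 (-0.72), Sdhb (-0.50), Sdhd (-0.42), Cox5a (-0.70), Atp5g3 (-0.36) and Atp5s (-0.67). The 3 higher were Uqcrc2 (0.47), a core protein of complex III, Cox6a2 (4.50) and Ndufa3 (0.50). None was a mitochondrially encoded member. Ndufs1, the largest core subunit of complex I, had 121, 120 and 130 CPM in KI and 159, 130 and 179 in wt at 48 h. Its lowest wt value was that of experiment 3, a library left out. Among wt libraries at 48 h that library also had the lowest mean log2 level of nuclear complexes I, II, III and V. In complex IV it had the highest.

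**Figure D5:**
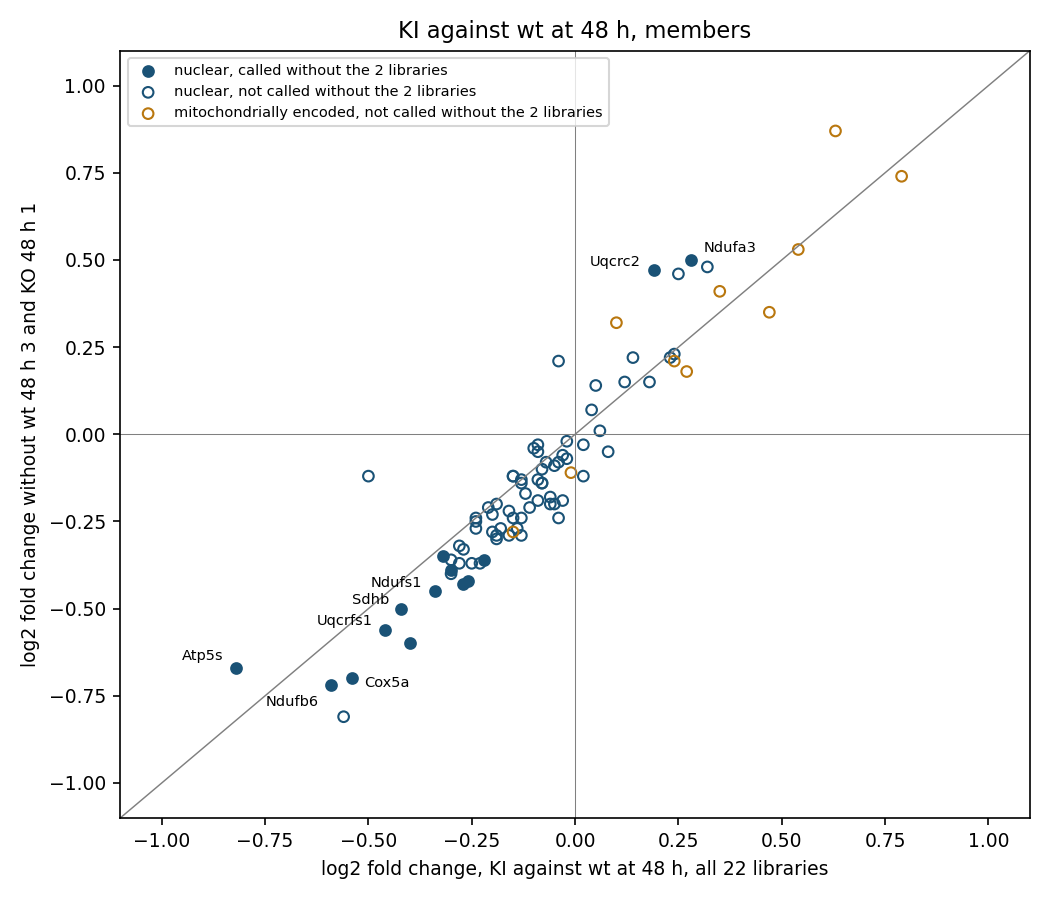
Log2 fold change of KI against wt at 48 h for each member, with all libraries on the x axis and without the 2 libraries that stood apart on the y axis, for the 88 members inside the axes of ±1.1. Cox6a2 and Cox6b2 lie outside; filled points are members called in the second fit, most of them below 0.

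Whether activation itself differed between KI and wt was tested as an interaction. At 24 h 0 members were called by edgeR (1 at an unadjusted p under 0.05, 0 by DESeq2), with 0% of all genes called. At 48 h 0 were called (4 at an unadjusted p under 0.05, 0 by DESeq2), with 0.387% of all genes called. Uqcrfs1 had the smallest p at 48 h, with a difference of -0.45 (adjusted p 0.285 by edgeR). Without the 2 libraries that stood apart 4 were called at 48 h, Uqcrfs1 (adjusted p 0.0202 by edgeR), Ndufs1 and Ndufb6 with a smaller rise in KI and Cox6a2 with a larger one, while 742 and 588 of all genes were called higher and lower. The 10 mitochondrial members all had a positive difference at both times, with medians of 0.44 and 0.52 (0.37 and 0.42 over the 7 with many counts), and none was called. Without the 2 libraries that stood apart mt-Nd1 was at -0.01 at 48 h and the other 9 were positive. In naive cells all 10 had a negative KI against wt value (median -0.26), also with none called. They are read from shared precursors and compared over the same libraries, so they are not 10 separate observations.

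The libraries labelled KO were compared with wt libraries, which are of the other line. In naive cells 0 members were called by edgeR (0 at an unadjusted p under 0.05, 0 by DESeq2), with 0.0236% of all genes called, and the nuclear median was 0.00. At 48 h 0 were called (3 at an unadjusted p under 0.05), with 0.0283% of all genes called, and DESeq2 called 1, mt-Atp6. The smallest p were those of mt-Atp6 (5.57, adjusted p 0.186 by edgeR), mt-Nd6 (-0.57, 0.679) and Cox6a2 (3.16, 0.679). With KO replicate 5 left out, so that the library that stood apart was alone in its group and was assumed to vary like the others, 19 of 90 members were called, 17 lower and 2 higher, as were 4831 of all 21183 genes, a like share. With KO replicate 1 left out 1 was called, and 6 of all genes.

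Genes around the chain were counted from lists of other names. In wt 26.3% of all genes tested were called higher and 22% lower at 24 h, and 29.6% and 26.8% at 48 h. Of 25 electron carriers and partners (cytochrome c, coenzyme Q synthesis, carriers and porins), 17 were called higher and 0 lower in wt at 24 h. At 48 h 17 were higher and 1 lower, with a median of 0.91. Cytochrome c itself (Cycs) was not called at either time (0.29 and 0.83). Cyc1, whose name the member rule does not take, was called higher at both (1.14 and 0.87). Vdac1, the outer membrane porin, rose from 88.8 ± 10.9 to 335 ± 13.3 CPM at 48 h (SD, n = 3, log2 fold change 1.92), Coq7 of coenzyme Q synthesis by 1.86 and the ADP/ATP carrier Slc25a5 by 1.62, while Coq8a fell by 1.11. Of 47 assembly factors 26 were called higher and 0 lower at 24 h and 23 and 2 at 48 h (median 0.41). The complex I factors Ndufaf6 and Ndufaf2 rose by 2.19 and 2.1 and the copper chaperone Cox17 by 1.86, whereas the complex III factors Uqcc3 and Lyrm7 fell by 1.5 and 0.56.

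Genes that act on mitochondrial DNA and RNA were counted next. Of 20 genes for replication and transcription of mitochondrial DNA 8 were called higher and 4 lower in wt at 48 h (median 0.40), where 29.6% and 26.8% of all genes were. The exonuclease Mgme1 rose by 1.77, the topoisomerase Top1mt by 1.31 and the packaging and transcription factor Tfam by 0.77, from 63.8 ± 5.04 to 109 ± 20.3 CPM (SD, n = 3). The thymidine kinase Tk2 fell by 1.42, the ribonucleotide reductase subunit Rrm2b by 0.97 and the polymerase subunit Polg2 by 0.57. Of 22 genes for processing and stability of mitochondrial RNA 18 were called higher and 2 lower (median 0.80), with Rexo2, an RNA exonuclease, up by 1.15, Ptcd3 by 1.13 and Fastk at -0.61. Of 14 regulators named for respiratory genes 4 were called higher and 4 lower, shares near the 29.6% and 26.8% of all genes. The higher ones were Hif1a (1.51), Myc (1.03), Gabpb1 (0.76) and Gabpa (0.28). The lower ones were Ppargc1a (-3.14), which stood at 0.417 ± 0.0401 CPM naive, Gabpb2 (-0.93), Ppargc1b (-0.65) and Nfe2l2 (-0.50). Nrf1 (0.14) and Yy1 (0.10) were not called at 48 h. Nrf1 was called lower in wt at 24 h (-0.34, adjusted p 0.0271 by edgeR). In KI against wt at 48 h 2.29% of all genes were called higher and 1.91% lower. There 3 of the 22 RNA processing genes were called lower, 3 of the 47 assembly factors lower and 2 higher, and 1 of the 25 carriers lower. None of the 20 DNA genes or 14 regulators was called by edgeR in that comparison (4 and 3 at an unadjusted p under 0.05).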

How the data were processed

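RNA of 22 libraries from 8 mice was sequenced as stranded poly(A) libraries, paired-end, per the labels' protocols. The deposited table of raw counts per gene was the input of all tests, and the authors also deposited log2 normalized values and FPKM. Recomputation showed the deposited log2 values to be log2 of count over a library factor plus 1, and the deposited FPKM to be normalized counts over a constant per gene. The submitters' processing notes name bcl2fastq 2.20.0, TopHat2 2.1.0, Bowtie2 2.2.5, SAMtools 0.1.19, featureCounts, DESeq2 1.6.3 and build GRCm38. The strand setting and the treatment of reads with several matches are not given in the sources used here.

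Genes passing edgeR's filterByExpr (minimum count 10, minimum total 15) numbered 21183. One model with 8 group means was fitted to all 22 libraries with TMM factors (0.9289 to 1.069), leaving 14 residual degrees of freedom, and 14 comparisons were tested with edgeR's quasi-likelihood test (glmQLFit, glmQLFTest), Benjamini-Hochberg adjustment over all genes and an adjusted p threshold of 0.05. Mean log2 levels and the balance used counts plus 0.5. Listed genes held 85.3% to 88.5% of counts. The scripts were tested on simulated data. Tools were R 4.3.3, edgeR 4.0.16, DESeq2 1.42.0, limma 3.58.1, Python 3.11.15, pandas 2.3.3, numpy 2.4.6 and matplotlib 3.10.9.

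The members and lists were chosen with earlier results of these data known. Genes were named by rule: all mitochondrial and complex II members, the complex IV isoforms, in wt activation the 2 called nuclear members of complexes I, III, IV and V with the largest change each way, up to 6 members with the smallest p between genotypes (3 where none was called), and up to 3 called genes each way per other list. Ndufa6, Ndufs1, Ndufs8, Ndufv3, Uqcr10, Uqcr11, Uqcrh, Atp5g1, Atp5g2, Atp5l and members listed as not called were added after their values were seen. The regulators Gabpa, Nfe2l2, Nrf1 and Yy1 were also added then. The labels tie numbers to experiments and mice, so they pair libraries. Deviations from group means correlated between KI and wt of 1 experiment with a median r of 0.168 (9 pairs, lowest 0.0762) and within mice of 0.138 (20 pairs, lowest 0.0701). No replicates were near-identical (chi-square per degree of freedom at least 16.8). Alternatives were upper-quartile scaling, DESeq2 size factors, no count filter, DESeq2, only the groups compared, experiment or mouse as a block, each replicate left out and, added after seeing the data, the 2 libraries that stood apart left out.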

Additional observations from a re-analysis of the deposited data

How the results depend on the processing

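Between naive and activated cells of wt and KI, the number of members called stayed within 1.5 times under every alternative run, with 54 to 67 (wt, 24 h), 61 to 64 (wt, 48 h), 55 to 61 (KI, 24 h) and 53 to 58 (KI, 48 h) when 1 replicate was left out. Upper-quartile scaling moved the median log2 fold change of all genes by up to -0.259 (wt, 48 h, where 54 members were then called higher and 6 lower). For the libraries labelled KO, 41 to 48 were called without 1 replicate, 3 with only the groups compared and 10 with mouse as a replicate block. For 48 h against 24 h, wt gave 2 by DESeq2, 0 to 1 without 1 replicate and 6 without the 2 libraries that stood apart, and KI gave 4 with mouse as a replicate block. KI against wt at 48 h gave 2 with DESeq2 size factors, 6 by DESeq2, 0 with no filter, 0 with only the groups compared, 4 with experiment as a replicate block, 0 to 4 without 1 replicate and 15 without the 2 libraries. The libraries labelled KO against wt at 48 h gave 1 with no filter, 1 by DESeq2, 0 to 19 without 1 replicate and 1 without the 2 libraries, and the KI interaction at 48 h gave 4 without them. The replicate block moved no other count by over 1.5 times. Taken as a difference of medians, the balance changed by -0.76 in wt at 24 h, and KI minus wt at 24 h was 0.07. In the libraries labelled KO, Cox6b2 at 48 h against naive ranged from -0.15 without KO replicate 1 (edgeR adjusted p 0.934) to 3.61 without KO replicate 5 and was -0.07 without the 2 libraries, and mt-Atp6 ranged from -2.83 without KO replicate 5 (edgeR adjusted p 0.046) to 4.89 without KO replicate 1. Of 1524 values recomputed for named genes, 1411 kept direction and side of the threshold, 102 lost and 8 gained a call, and 3 reversed. The cause was not tested for any of these, except that fewer samples entered where libraries were left out.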
